A study of Mus musculus with 3 samples.

Results

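The Hippo pathway effectors were examined as 10 genes chosen by name, out of 43472 gene rows in the deposited table. They were the coactivators Yap1 (YAP) and Wwtr1 (TAZ), the DNA-binding partners Tead1, Tead2, Tead3 and Tead4, the inhibitory kinases Lats1 and Lats2, and Amotl2 and Ankrd1, which are both known as YAP/TAZ target genes. All 10 were found in the table. Transcripts were measured by RNA-seq in primary fibroblasts from the tail tips of C57BL/6 mice, wounded with a pipette tip in the cell scratch assay. All 3 libraries came from 1 condition, in which the soluble micrograft (MG, a cell-depleted extract of minced mouse skin, diluted 1:10 in growth medium) was applied for 5 h along with 1 μM PD0325901, which blocks MEK and thereby ERK. The libraries are called replicates 1, 2 and 3, and were submitted as biological replicates, although whether each came from a separate animal was not stated. Cells without MG or without the inhibitor were not analysed here, so no effect of either was computed and the values below describe levels and the spread between replicates.

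In the Hippo pathway, the MST kinases with the adaptor SAV1 activate LATS1 and LATS2 with the help of MOB1, and LATS phosphorylates YAP and TAZ. Phosphorylated YAP and TAZ are held in the cytoplasm or degraded, whereas unphosphorylated YAP and TAZ enter the nucleus and bind TEAD factors. In fibroblasts the pathway is known to respond to cell shape, stiffness of the substrate and cell density. Much of this regulation acts on the proteins, which RNA levels do not show. LATS2 and AMOTL2 are themselves targets of YAP/TAZ and act back on them as inhibitors.

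TEAD factors bind DNA at the core motif GGAATG, and this motif was searched in the promoters of the 10 genes, since Ankrd1 and Amotl2 are known targets. RefSeq promoters (GRCm38.p6) were given for 8 of the 10 genes, Tead1 and Tead4 being without an entry. In the 250 bases before the most upstream RefSeq start, GGAATG or its reverse complement CATTCC occurred in 5 of these 8 genes. The share was 12.6% of the 27026 promoters searched in the same way. Ankrd1 held 2 matches, and Yap1, Wwtr1, Tead3 and Amotl2 held 1 each. None of the 8 promoters held TGANTCA, the AP-1 core motif, which occurred in 6.85% of all promoters. The matches are shown with 12 bases on each side, on the strand of the gene, with the motif in capitals.
Ankrd1, 210 bases before the start, chr19:36120037-36120066, minus strand: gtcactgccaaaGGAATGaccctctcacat
Ankrd1, 123 bases before the start, chr19:36119950-36119979, minus strand: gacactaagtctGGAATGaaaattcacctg
Amotl2, 65 bases before the start, chr9:102717727-102717756, plus strand: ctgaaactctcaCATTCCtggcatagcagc
Yap1, 141 bases before the start, chr9:8004720-8004749, minus strand: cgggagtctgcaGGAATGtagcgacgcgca
Wwtr1, 136 bases before the start, chr3:57576029-57576058, minus strand: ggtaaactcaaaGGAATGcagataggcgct
Tead3, 182 bases before the start, chr17:28350970-28350999, minus strand: gacgacgagcgaGGAATGgggtgcgcggga
These are letter matches in a short window and binding was not measured. In GENCODE M21, exons of the same gene cover the whole Ankrd1 window, 136 bases of the Amotl2 window and 12 bases of the Tead3 window, and an exon of Gm45494 on the opposite strand covers 17 bases of the Yap1 window. The Ankrd1, Amotl2 and Lats2 windows lie wholly inside these genes as placed in GENCODE M21, whose most upstream starts are further upstream.

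The levels below are normalized counts, that is, reads on a gene divided by 1 size factor per library, and rested on 17244505 to 27037783 reads on genes per library. Detection required 10 normalized counts in each library, and 12204 genes met it. The fibroblast label was checked with 8 marker genes, all of which were detected. Col1a1 was at 157553, 154124 and 246175 normalized counts in replicates 1, 2 and 3. The matrix proteoglycan genes Lum, with 5073, 289 and 1164, and Dcn, with 3661, 1723 and 3659, were like Col1a1 and Fn1 lowest in replicate 2. Col1a2, Pdgfra, Pdgfrb and Vim were lowest in replicate 1. Of the keratinocyte markers, Krt5, Krt14, Krt15 and Krt1 reached at most 2.37 normalized counts in any library. Krt10 had 80.8, 39.5 and 32.0 and Dsp had 161, 113 and 98.4 in replicates 1, 2 and 3. Of the endothelial markers, Pecam1, Cdh5 and Kdr reached at most 9.55 in any library, but Tek had 185 in replicate 2. Replicate 2 stood apart from the other libraries across the transcriptome. In edgeR the common coefficient of biological variation was 31.8% over the 3 libraries and 22.5% without replicate 2. The 6 keratinocyte markers, of which Krt10 and Dsp were detected, summed to 242, 152 and 133 normalized counts, and the 5 leukocyte markers to 26.9, 41.6 and 90.1 normalized counts.

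All 10 Hippo genes were detected in every library, and the values that follow are in the order of replicates 1, 2 and 3. Both coactivators had at least 2397 reads in every library. Yap1 (chr9:7931999-8004596, minus strand, GRCm38) was at 3268 in replicate 1, 5087 in replicate 2 and 2841 in replicate 3, and averaged 3732 ± 1192 normalized counts (SD, n = 3). Wwtr1 (chr3:57455649-57575910, minus strand) reached 2990, 2758 and 3114 in the same order of libraries, and averaged 2954 ± 181 normalized counts (SD, n = 3). Yap1 was highest in replicate 2, where Wwtr1 was lowest, and the range of Wwtr1 was only 1.13-fold against 1.79-fold for Yap1.

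Of the TEAD genes, Tead1 varied least between replicates. Tead1 (chr7:112679318-112906807, plus strand) was at 4092 in replicate 1, 4907 in replicate 2 and 4547 in replicate 3, and averaged 4515 ± 408 normalized counts (SD, n = 3). Tead2 (chr7:45215753-45233644, plus strand), best known from the early embryo and neural progenitors, reached 628, 1550 and 331, and averaged 836 ± 636 normalized counts (SD, n = 3). Replicate 2 was thus 2.47-fold above replicate 1, the next highest. Tead3 (chr17:28331671-28350817, minus strand) reached 617, 1293 and 743, and averaged 885 ± 359 normalized counts (SD, n = 3). Tead4 (chr6:128224288-128300823, minus strand), known for its role in the trophectoderm and in muscle differentiation, reached 168, 102 and 215, and averaged 162 ± 56.5 normalized counts (SD, n = 3). Replicate 2 was the highest library for Tead1, Tead2 and Tead3 and the lowest for Tead4. Counting error does not limit these values, as even the 145 reads of Tead4 in replicate 2 carry an error of 8.30%.

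The 2 LATS kinases differed in their range over the 3 libraries. Lats1 (chr10:7681214-7716460, plus strand) was at 1240 in replicate 1, 1209 in replicate 2 and 1220 in replicate 3, and averaged 1223 ± 15.7 normalized counts (SD, n = 3). Its SD on the log2(normalized count + 1) scale was 0.018, at percentile 0.287 of all detected genes. The SD was 1.28% of the mean, below the counting error of 3.12% at its fewest reads. Counting alone gives a wider spread than this, so the value does not measure how steady Lats1 was. Lats2 (chr14:57689662-57758388, minus strand), which is also a YAP/TAZ target, reached 2691, 2945 and 3678, and averaged 3105 ± 512 normalized counts (SD, n = 3). Lats2 was lowest in replicate 1 and highest in replicate 3. In edgeR the coefficient of biological variation was 21.1% for Lats1 and 23.5% for Lats2, at percentiles 0.803 and 17.2 of the genes tested. In GENCODE M21, Lats2 shares 2955 exonic bases with the gene model Gm49361 on the same strand. Gm49361 has no row under that name in the deposited values, although genes with 0 reads do have rows. Whether the annotation used for counting held this gene model is not given, so the Lats2 level is uncertain. Yap1 and Tead2 overlap Gm20416 and Cd37 on the opposite strand, which had 0 reads and at most 3 reads in any library.

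Amotl2 and Ankrd1, the other 2 targets, had their highest levels in different libraries. Amotl2 (chr9:102716672-102733418, plus strand), an angiomotin that binds YAP and holds it outside the nucleus, was at 11486 in replicate 1, 14843 in replicate 2 and 17061 in replicate 3, and averaged 14463 ± 2807 normalized counts (SD, n = 3). Ankrd1 (chr19:36111961-36120099, minus strand) encodes an ankyrin repeat protein of muscle that wounded and stretched cells also express. The window searched for Ankrd1 holds 2 of the motifs shown above, but exons of Ankrd1 cover all of it in GENCODE M21. Ankrd1 reached 671, 1723 and 467, and averaged 954 ± 674 normalized counts (SD, n = 3). Replicate 2 was 2.57-fold above replicate 1 for Ankrd1, whereas replicate 3 was the highest library for Amotl2 and the lowest for Ankrd1. Without replicate 2 the mean was 569 normalized counts for Ankrd1 and 479 for Tead2.

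**Figure D1:**
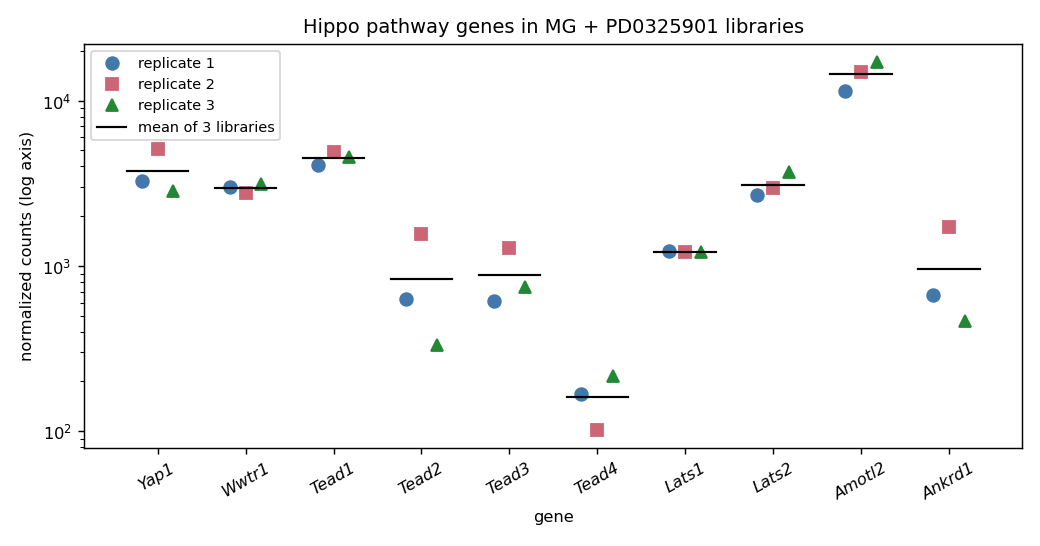
Normalized counts (log axis) of the 10 Hippo genes in the 3 MG + PD0325901 libraries, with a line at the mean. Tead2, Tead3 and Ankrd1 were highest in replicate 2 (1550, 1293 and 1723 normalized counts), while the 3 points of Lats1 lie between 1209 and 1240.

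To compare levels between genes, normalized counts were divided by exonic length in kb, the union of the annotated exons of each gene. By mean, the order was Amotl2, Wwtr1, Lats2, Yap1, Tead1, Ankrd1, Tead2, Lats1, Tead3 and Tead4. Amotl2 had 2300 ± 446 normalized counts per kb (SD, n = 3), at percentile 96.3 of the detected genes with a length, and was 3.72-fold above Wwtr1 with 618 ± 37.8. Amotl2 and Wwtr1, Wwtr1 and Lats2, and Tead3 and Tead4 were neighbours whose ranges over the 3 libraries did not overlap. For the other 6 neighbouring pairs the ranges overlapped, so their order was within the spread between replicates. Tead1 with 333 ± 30.1 and Ankrd1 with 331 ± 234 normalized counts per kb (SD, n = 3) had almost the same mean, but Ankrd1 ranked 2 among the 10 genes in replicate 2 and 7 in replicate 3. Tead4 came last in every library, with 44.9 ± 15.7 normalized counts per kb (SD, n = 3).

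The length used decided part of this order. Yap1 has a union of exons of 9257 bases but a longest annotated transcript of 5282 bases, while the 2 lengths of Wwtr1 are 4779 and 4697 bases. With the longest transcript as length, Yap1 had 707 ± 226 normalized counts per kb (SD, n = 3), above Wwtr1 with 629 ± 38.5, and 8 of the 10 ranks changed. The ranges of Wwtr1 (587 to 663) and Lats2 (518 to 709 normalized counts per kb), whose level is uncertain for the shared bases, then overlapped. Amotl2 kept rank 1 and Tead4 rank 10.

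**Figure D2:**
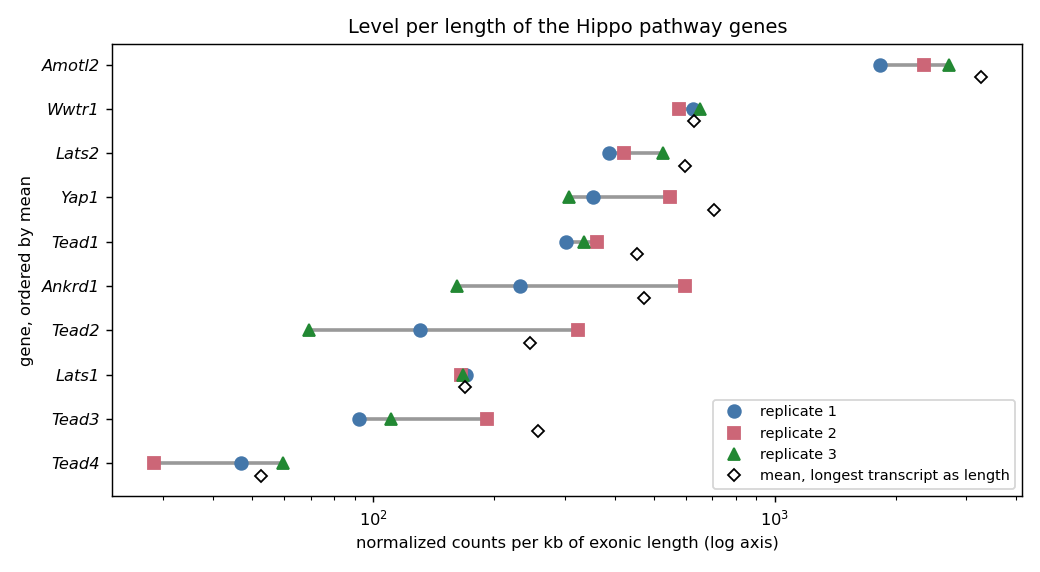
Normalized counts per kb (log axis) of the 10 genes, ordered by mean, with filled symbols for the 3 libraries and a grey bar from the lowest to the highest. Open diamonds give the mean with the longest transcript as length, which places Yap1 (707) above Wwtr1 (629), the reverse of the order by the union of exons.

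Shares within sets of paralogs were computed from the levels per kb in each library, as a share does not depend on how a library was scaled. Wwtr1 made up 63.9%, 51.2% and 68.0% of the sum of Yap1 and Wwtr1 in replicates 1, 2 and 3, averaging 61.0% ± 8.7 (SD, n = 3). With the longest transcript as length the mean was 47.9% ± 9.0 (SD, n = 3), so which of the 2 coactivators was the more abundant could not be settled. In both cases the share of Wwtr1 was lowest in replicate 2. By the union of exons, the sum of the 2 coactivators varied 1.18-fold, with 979, 1127 and 958 normalized counts per kb. The sum was not computed with the longest transcript as length, which gives more weight to Yap1, the more variable of the 2 genes.

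Among the TEAD genes, Tead1 held the largest share in every library, with 52.8%, 39.9% and 58.3% of the summed level per kb in replicates 1, 2 and 3. Tead2 held 22.9%, 35.7% and 12%, close to Tead1 in replicate 2. Tead3 held 16.1% to 21.2% and Tead4 3.13% to 10.4%. The TEAD sum was 571, 906 and 574 normalized counts per kb, so replicate 2 stood above the other libraries, which were nearly equal. Lats2 held 69.4%, 71.8% and 75.9% of the LATS sum per kb, and was above Lats1 in every library.

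**Figure D3:**
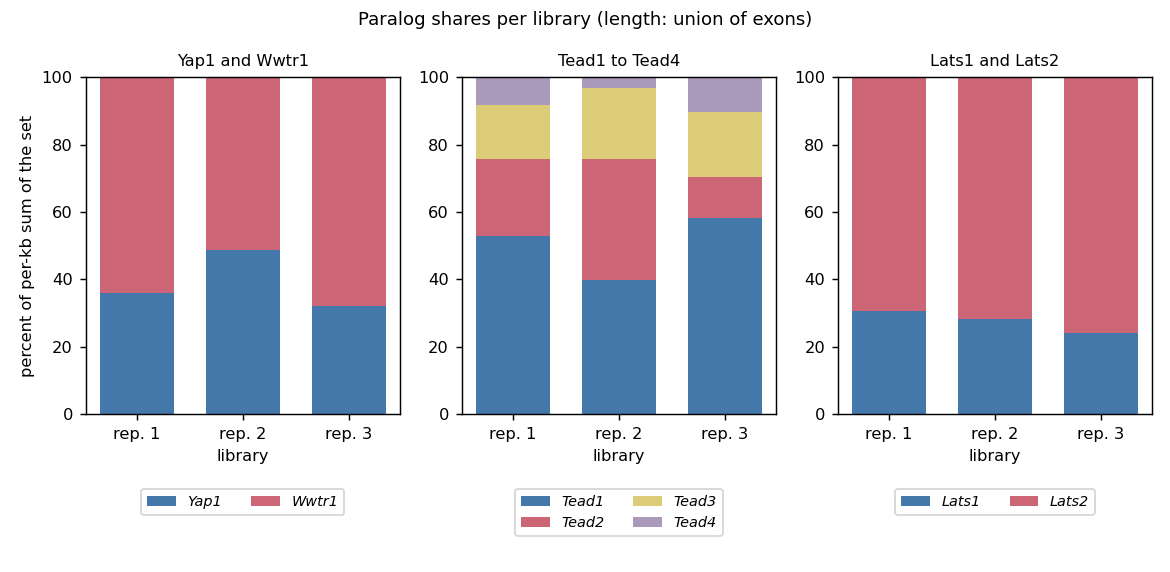
Percent of the summed level per kb held by each paralog in each library, for Yap1 and Wwtr1, Tead1 to Tead4, and Lats1 and Lats2. The Tead2 band is widest in replicate 2 (35.7%) and narrowest in replicate 3 (12%), while Lats2 holds 69.4% to 75.9%.

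The spread between replicates was then set against that of the transcriptome. A gene was counted where the highest library was more than 2-fold above the lowest, on the log2(normalized count + 1) scale. This was the case for 4 of the 10 Hippo genes, against 21.6% of all 12204 detected genes. Tead2 had a 4.68-fold range, Ankrd1 3.68-fold, and Tead3 and Tead4 lay just past the limit with 2.09-fold each. A range can only narrow when a library is left out. Without replicate 2, no member passed, and 6.39% of all genes did, while 3 members passed without replicate 1 and 3 without replicate 3. With libraries scaled to equal total reads, 3 members passed and Tead4 did not. The median SD on the log2 scale was 0.36 for the 10 genes and 0.30 for all detected genes. Replicate 2 was more than 2-fold above both other replicates for Tead2 and Ankrd1, against 4.22% of all detected genes, and no member was that far below.

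**Figure D4:**
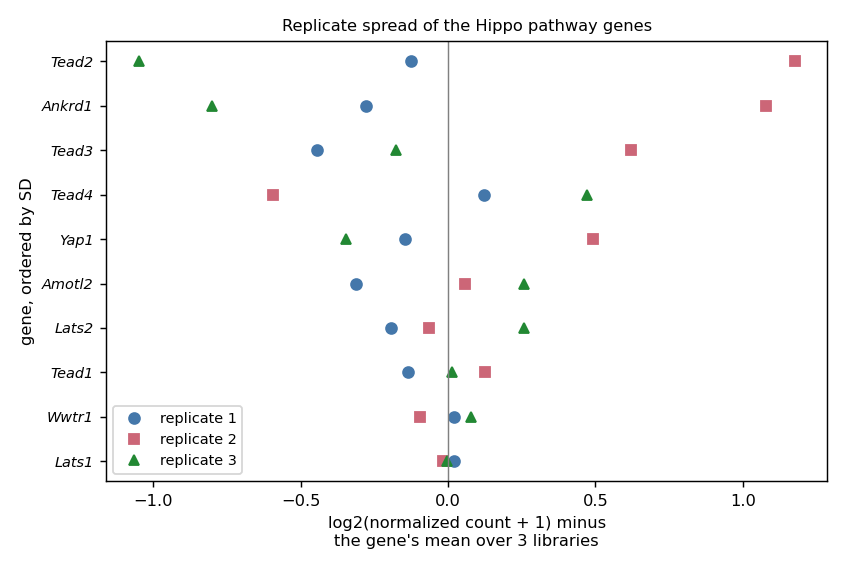
Difference of each library from the mean of the gene, on the log2(normalized count + 1) scale, for the 10 genes ordered by their SD. Replicate 2 lies far to the right for Tead2, Ankrd1, Tead3 and Yap1 and to the left for Tead4, while the 3 points of Lats1 coincide (SD 0.018).

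Pairs of libraries were compared with two-sided exact binomial tests on the reads, adjusted by Benjamini-Hochberg over all genes. These tests compare libraries of the same condition and cover counting error only. They call a gene more readily the more reads it has. The 10 genes had at least 145 reads in every library, whereas genes with as few as 10 reads in a pair were tested. The shares of all genes tested are thus not matched for reads. Between replicates 1 and 2, 9 of the 10 genes differed, against 68.4% of all genes tested, and 7 of them were higher in replicate 2, against 35.7% of all genes tested. Between replicates 1 and 3, 8 differed, against 51.1%, and between replicates 2 and 3, 9 differed, against 62% of all genes tested. Lats1 was the only one of the 10 that differed in none of the pairs, with a ratio of replicate 2 to replicate 1 of 0.975 (95% exact interval 0.908 to 1.05) and an adjusted p of 0.56. Wwtr1 did not differ between replicates 1 and 3, with a ratio of 1.04 (0.99 to 1.1, adjusted p = 0.19 in the exact test). For Ankrd1, replicate 2 was 2.57-fold above replicate 1 (2.37 to 2.79, adjusted p = 9.62e-131 in the exact test). For Tead2 the ratio was 2.47 (2.27 to 2.69, adjusted p = 2.25e-110 in the exact test). When a difference of over 2-fold was required as well, 3 members remained between replicates 1 and 2 (Tead2, Tead3 and Ankrd1), none between replicates 1 and 3, and 3 between replicates 2 and 3 (Tead2, Tead4 and Ankrd1). The shares of all genes tested were 19.8%, 8.78% and 16.1%.

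Markers of muscle and vessel cells were read beside Ankrd1 and Tead2, since Ankrd1 is also a muscle gene. Of the 5 skeletal muscle markers, Des and Acta1 were detected, and the list summed to 2641, 8494 and 5664 normalized counts in replicates 1, 2 and 3. Des, an intermediate filament gene of muscle, had 212, 1208 and 77.0 normalized counts, and like Ankrd1 and Tead2 was highest in replicate 2 and lowest in replicate 3. Among all detected genes, 40.6% were highest in replicate 2 and 28.3% were lowest in replicate 3. Acta1, the skeletal actin gene, had 2429, 7286 and 5586 and was lowest in replicate 1. The others of this list were at or near 0, as Myod1 was at 0 in every library and Myog and Ckm had at most 1 read. The 4 cardiac markers summed to 96.4, 66.9 and 51.0 normalized counts, with Nppa as the only one detected and Myh6 at 0. All 3 markers of pericytes and vascular smooth muscle were detected, and the list summed to 1632, 1921 and 712 normalized counts. Notch3, with 40.8, 228 and 23.7, and Myh11, with 1383, 1587 and 584, were highest in replicate 2 and lowest in replicate 3, whereas Rgs5, with 208, 106 and 104, was highest in replicate 1. The 4 endothelial markers, of which none was detected in every library, summed to 20.8, 190 and 5.93, of which Tek gave 185 in replicate 2. Of the 8 fibroblast markers, 4 were lowest in replicate 2, Lum and Dcn among them, and the other 4 in replicate 1. The part of such cells in the Ankrd1 and Tead2 values was not tested. In bulk RNA, fewer cells of a type and less RNA per cell cannot be told apart.

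The other genes of the pathway were read from 4 lists holding 43 different genes. All 9 genes of the core kinase module were detected, and none had a range of more than 2-fold, against 21.6% of all detected genes. Mob1a, the coactivator of LATS, had 3227, 4421 and 3600 normalized counts across replicates 1 to 3, and its level per kb of 782 ± 127 (SD, n = 3) was the highest of the module. Map4k4, a kinase that can phosphorylate LATS in parallel with MST, followed with 754 ± 153 normalized counts per kb, and Sav1, the scaffold of the MST kinases, with 259 ± 30.4 (SD, n = 3). Stk4, which encodes MST1, had the widest range of the module, 1.45-fold, with 1037, 977 and 1422 normalized counts. Replicate 2 was the highest library for 7 of the 9 genes, against 40.6% of all detected genes. By the exact test, 7 were higher in replicate 2 than in replicate 1, against 35.7% of all genes tested, a share not matched for reads.

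Of the 12 upstream and junctional regulators, 11 were detected. Frmd6, the Willin protein that acts on the kinase cascade from the cell cortex, had the highest level per kb, 1000.0 ± 111 (SD, n = 3), with 5570, 6797 and 6808 normalized counts in replicates 1, 2 and 3. It was followed by the LIM proteins Ajuba with 422 ± 33.1 and Wtip with 272 ± 48.7 normalized counts per kb (SD, n = 3), which bind LATS. Amot, the angiomotin that gave the family of Amotl2 its name, was the only regulator past a 2-fold range, with 1930, 1511 and 728 normalized counts. Its low library was replicate 3, which was the highest library for Amotl2. Dchs1, an atypical cadherin, was near the limit with 8, 13 and 0 reads. In replicate 3, 3 reads equal 3.56 normalized counts, and Dchs1 lay below its 9.16 of replicate 2 (adjusted p = 0.0086 in the exact test).

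Vestigial-like proteins bind TEAD in place of YAP and TAZ. Vgll3 had 4135, 4073 and 3937 normalized counts across replicates 1 to 3, and its level per kb of 570 ± 14.2 (SD, n = 3) stood above that of each TEAD gene. Vgll4 had 337, 728 and 594 normalized counts and a 2.16-fold range. Vgll1 and Vgll2 were at 0 reads in every library, which allows up to 3 reads or 2.11 to 3.56 normalized counts.

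The list of other YAP/TAZ target genes held 19 genes, drawn from common signatures of YAP/TAZ activity, and all were detected. Ccn2 (CTGF), a secreted matricellular protein, had 122412, 58880 and 111854 normalized counts across replicates 1 to 3, with 34154 ± 11899 per kb (SD, n = 3). Ccn1 (CYR61), of the same family, had 29592, 19897 and 27080 normalized counts, and F3, the coagulation tissue factor, had 38077, 17307 and 29664. These were the 3 highest of the list per kb, and all 3 were lowest in replicate 2, where Ankrd1 was highest. Igfbp3, an IGF-binding protein, had the widest range, 6.87-fold, with 2732, 397 and 831 normalized counts.

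The targets lay on both sides in replicate 2, as did all detected genes. Replicate 2 was the highest library for 8 of the 19 genes (42.1%) and the lowest for 10 (52.6%). The shares of all detected genes were 40.6% and 37.3%. Between replicates 1 and 2, 8 genes were higher in replicate 2, 9 were lower and 2 were not called by the exact test, against 35.7% higher and 32.7% lower among all genes tested. Among those higher were the receptor tyrosine kinase gene Axl, with 11273, 22506 and 15725 normalized counts, and Myof, a membrane repair gene, with 2877, 7355 and 4535. Axl and Myof were named after their values were seen. A range of more than 2-fold was found in 10 of the 19 genes, against 21.6% of all detected genes. Like Ankrd1, 8 targets were highest in replicate 2, near the share of all detected genes, while Ccn1 and Ccn2 were lowest there.

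**Figure D5:**
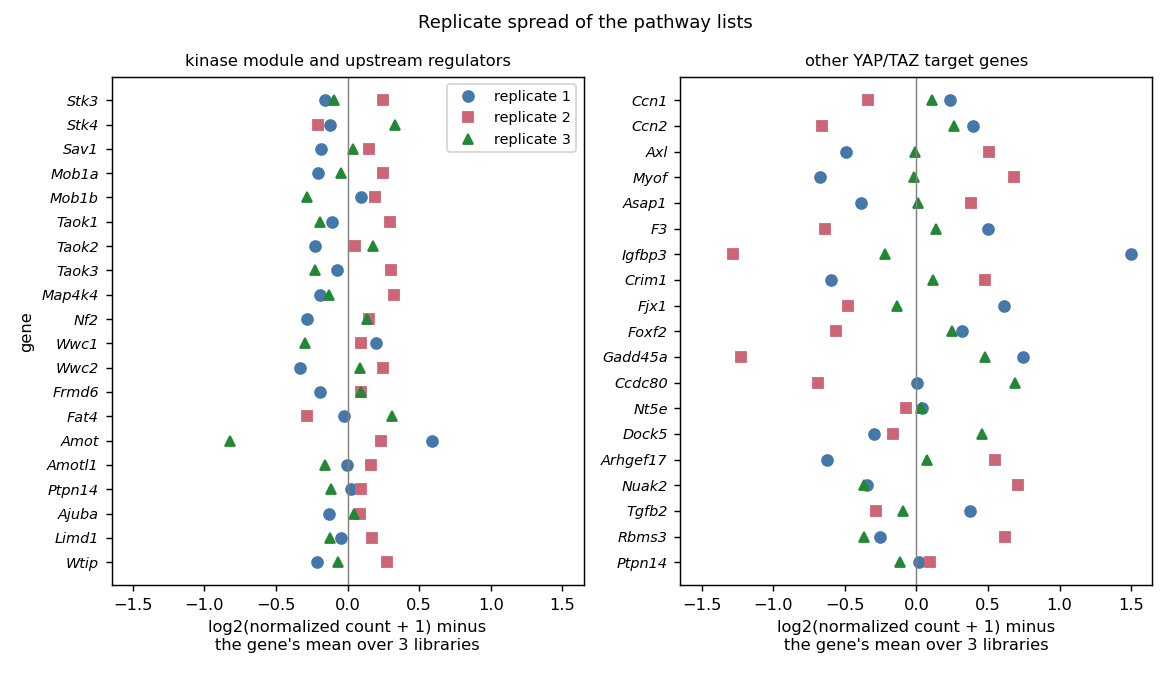
Difference of each library from the mean of the gene, on the log2(normalized count + 1) scale, for the detected genes of the kinase module and upstream regulators (left) and for 19 other YAP/TAZ target genes (right), on the same axis. On the left, Amot is the only gene past a 2-fold range, while on the right 10 genes pass, with replicate 2 (squares) on either side.

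The genes whose pattern over the 3 libraries was nearest to Yap1, Wwtr1 and Ankrd1 were found among 9991 other genes with a mean of at least 100 normalized counts, as the root mean square distance of log2 values centred on each gene. With only 3 libraries many genes lie close by such a measure. The distance was not scaled by the spread of a gene, so a flat gene has many near genes and a wide-ranging one few. The nearest to Yap1 were Insr, the insulin receptor gene, Epm2aip1 and Prkar1b, at distances of 0.0070, 0.0083 and 0.011, and 303 genes were within 0.1. For Wwtr1, whose level was almost flat, Loh12cr1, Ube2m and Dgcr14 came first and 1301 genes were within 0.1. For Ankrd1, whose range was wide, the nearest were Sh3bp5, Pif1 and Anpep, at 0.013, 0.018 and 0.019, and 26 genes were within 0.1. Sh3bp5 had 181, 466 and 128 normalized counts across replicates 1 to 3.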

How the data were processed

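Libraries of stranded mRNA were sequenced by the study from one end. Per its methods and the submitters' processing notes, reads were aligned to mm10 with TopHat2 (2.0.13), unique reads were counted per gene with HTSeq, and counts were normalized with DESeq. The annotation, the strand setting and the libraries behind the size factors are not given in the sources used here. The deposited values are a signal per gene, which the authors made by dividing the counts of a library by 1 size factor (normalized counts). The table has 43472 rows, and 3 further columns of libraries were left out, since they match no sample given here.

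In each library 100% of values were whole multiples of 1 read (tolerance 0.01), so reads were recovered, with 22540518, 27037783 and 17244505 on genes in replicates 1, 2 and 3 and size factors of 1.15, 1.42 and 0.844. Intervals and floors (3 reads) cover counting error only. With 1 condition there was no test between groups. Means, SDs and ranges used normalized counts with a pseudocount of 1 on the log2 scale. Library pairs with at least 10 reads were tested by exact binomial tests, adjusted at 0.05. edgeR 4.0.16 (R 4.3.3, TMM) gave the coefficient of variation. Lengths and positions came from GENCODE M21 (GRCm38), where 95.2% of detected genes had a length, and promoters from RefSeq (GRCm38.p6). Python 3.11.15, numpy 2.4.6, scipy 1.17.1 and pandas 2.3.3 were used. The scripts were tested on simulated data.

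The 10 genes, the lists and the tests were chosen with earlier results of these data known. Named from each list were the 3 highest per kb, the widest range, and genes under 10 normalized counts in every library, with the 3 nearest patterns to Yap1, Wwtr1 and Ankrd1. Alternatives were other scalings, lengths, minimums, pseudocounts and fold limits, and each replicate left out.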

Additional observations from a re-analysis of the deposited data

How the results depend on the processing

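No paired analysis was possible because the labels give 1 condition, with no second group to compare. Detection of the 10 Hippo genes and of the 4 lists changed by less than 1.5 times under each alternative run. Without replicate 2 the mean level was 479 in place of 836 normalized counts for Tead2 and 569 in place of 954 for Ankrd1. With the longest transcript as length, the share of Wwtr1 was 47.9% in place of 61.0% and that of Lats2 77.7% in place of 72.4%, by the change of length itself, and 8 of the 10 ranks per length changed. Neighbouring pairs with overlapping ranges numbered 6, and 3 to 5 with a replicate left out, lowest without replicate 2. Members past a 2-fold range numbered 4, and 0 to 3 with a replicate left out, 0 being without replicate 2. A range can only narrow when a replicate is left out, so by construction this number could not rise. The share of all genes past the limit was 21.6%, but 42.3% without a minimum, 48.5% at 1.5-fold (5 members), 12.8% without replicate 1 and 6.39% without replicate 2. Requiring over 2-fold as well lowered the members differing to 3, 0 and 3 for replicates 1 and 2, 1 and 3, and 2 and 3, and all genes from 10098, 7317 and 8889 to 2932, 1257 and 2306, by construction. The coefficient of variation by edgeR was between 22.5% without replicate 2 and 36.3% without replicate 3. Shares of Tead1 were 46.3% to 55.6% and of Wwtr1 57.6% to 66.0% with a replicate left out. Depth limited Vgll1 and Vgll2, and Dchs1 had under 10 normalized counts in every library.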
